A study of Mus musculus with 5 samples.

Results

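Boundary pairs are places in the genome of mouse CD8+ T cells, the cytotoxic lymphocytes, where a nearly unmethylated MspI fragment lies close to a highly methylated fragment. MspI cuts DNA at CCGG, so each fragment between cuts carries a CpG at either end and any CpGs in between. The methylation level of a fragment was the percentage of methylated calls among all calls at its CpGs, over all molecules. A boundary pair was chosen on the non-clonal population library alone: fragments whose numbers differ by 1 to 3, with a level of 10% or less on the low side and 80% or more on the high side. Both fragments also needed at least 10 molecules with a call in all 3 deposited libraries. There were 1675 such pairs, made of 1579 low-side and 1528 high-side fragments, together 3107 of the 161264 fragments with enough molecules in all 3 libraries and of 513942 fragments with a call in any library.

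All samples came from C57BL/6 mice. Naive T cells from spleen were stimulated with IL2 and sorted as single CD8+ cells, per the labels' protocols, and single cells were grown into clonal cultures. The population group is 1 sample of cells that were not cloned, labelled as primary. The 2 clone groups have 2 replicates each, labelled with 15 cell divisions, and each clone descends from 1 founder cell. Both replicates of a clone share 1 deposited file and could not be told apart, so each clone entered as 1 pooled library with no spread between replicates. Tests between libraries therefore compare these libraries, not clones or conditions in general, and intervals cover counting error only. No gene levels were measured, so the labelled cell type could not be checked against markers.

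Most CpGs of a mammalian genome are methylated, and the main exceptions are CpG islands, stretches rich in CpGs that often overlap promoters. The zone where an unmethylated island meets methylated flanking DNA is called the island shore, and such edges are known as sites where methylation differs between cell types. Maintenance methyltransferase copies methylated CpGs to the new strand at each division, while new methylation and loss of methylation can both occur, so a clone shows what its founder carried together with what changed during expansion. The fragments are known here only by number, so no island, gene or position is given and no sequence is printed.

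The population library held 8463942 molecules (17003711 reads), clone 1 held 11969176 (16036644 reads) and clone 2 held 8977287 (15027960 reads). Molecules with at least 1 call numbered 5588357, 7013054 and 5567534 in the same order. Low-side fragments had a median of 20 molecules in the population, 22 for clone 1 and 20 for clone 2, and high-side fragments had 26, 32 and 23. At this depth a single fragment's level is coarse: among 10 molecules, 1 molecule moves the share of methylated molecules by 10 points.

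Directly adjacent fragments were almost never in opposite states. Of 25039 measured fragment pairs with consecutive numbers, 5 had opposite states in the population (0.0200%). Such fragments meet at the same cut site, and both levels can include its CpG. Their percentage is therefore not fully comparable with those at larger distances. Among pairs 2 numbers apart the count was 561 of 22150 (2.53%), and among pairs 3 apart it was 1109 of 21229 (5.22%). The percentage went on growing with distance, to 19.2% at 12 numbers apart. The same states were then counted in each clone on its own levels. Clone 1 had 17, 601 and 1149 opposite pairs at 1, 2 and 3 apart, and clone 2 had 22, 625 and 1102. With every library thinned to the same molecules per fragment, the counts for consecutive numbers were 5 in the population, 24 for clone 1 and 25 for clone 2, out of the same 25039.

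**Figure D1:**
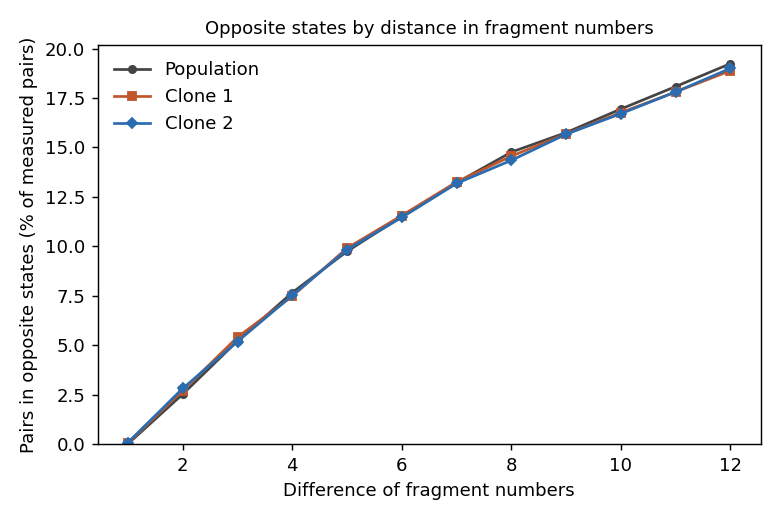
Percentage of measured fragment pairs in opposite states (10% or less against 80% or more) by the difference of their fragment numbers, with 1 line per library, each read on its own levels. The 3 lines run together from 0.0200% (population) at 1 apart to 19.2% (population), 18.9% (clone 1) at 12 apart.

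Pairs pointed about equally often either way, with the low side at the lower number in 828 and at the higher number in 847. Pairs overlapped: 455 shared a fragment with another pair, 94 low-side and 146 high-side fragments were in more than 1 pair, and these are not independent. In 16 cases a low-side fragment had a high side on both flanks within 3 numbers, and 9 high-side fragments had a low side on both flanks. Of 2779 fragment numbers lying between the sides, 1833 (66.0%) carried no CpG string in any file, 935 had a call and 319 had at least 10 molecules in all libraries. The position of the change inside most pairs was therefore not measured.

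The sides differed in CpG number, which the rule did not use. Low-side fragments had a median of 9 CpGs (range 2 to 35) and high-side fragments 4 (range 2 to 24). The low side held more CpGs in 1335 pairs (79.7%), fewer in 227 and the same number in 113. For comparison, low fragments outside boundary pairs had a median of 11 CpGs and high ones 4. A low-side fragment carries more calls per molecule, so its level rests on more observations than that of a high-side fragment of equal depth.

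Levels in the population chose the pairs and are given only as a description. Low sides had a mean of 2.60% and a median of 1.47%, with 332 fragments at 0. High sides had a mean of 93.0% and a median of 94.0%. At the thresholds, 7 low-side fragments stood at exactly 10% and 7 high-side fragments at exactly 80%. Just outside, the nearest low side that failed was at 10.1% and the nearest high side at 79.9%, and widening the limits to 15% or to 75% would add 265 and 146 pairs. In 219 pairs a side stood at exactly 10 molecules in some library, and a minimum of 9 would add 251 pairs.

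Most boundaries had the same form in the clones. The step, the high-side level minus the low-side level, had a median of 91.1 points in the population, 92.4 for clone 1 and 92.4 for clone 2. Both sides stayed within the thresholds in 1307 pairs in clone 1 (78.0%, Wilson 95% interval 76.0 to 79.9%) and in 1288 for clone 2 (76.9%, 74.8 to 78.9%). Both clones kept 1134 pairs (67.7%) and neither clone kept 214. The low side, whose range is 10 points wide against 20 for the high side, more often left it: it alone did so in 244 pairs in clone 1 and 282 in clone 2, against 103 and 88 for the high side alone and 21 and 17 for both. Steps under 50 points were found in 36 pairs in clone 1 and 38 in clone 2, and in 1 pair, in clone 2, the step ran the other way.

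The 3 deepest pairs kept in both clones show the usual boundary. Fragment 424817 (10 CpGs) was at 0.293% in the population, 1.00% for clone 1 and 1.05% for clone 2, and its high side 424820 (4 CpGs) was at 94.6%, 95.0% and 96.8%. Fragment 428596 (14 CpGs) was at 2.45%, 1.19% and 2.64%, and its high side 428599 (4 CpGs) at 93.0%, 96.9% and 96.6%. Fragment 524308 (8 CpGs) was at 1.24%, 2.79% and 1.5%, and its high side 524306 (6 CpGs) at 90.3%, 96.0% and 95.0%. No low-side molecule of these 3 pairs was mostly methylated in any library, out of 33 to 43 molecules per fragment and library.

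Because the population chose the pairs, some loss on reading another library is built into the counts. The choice was therefore repeated on 1 of 2 random parts of the population's molecules, and the other part and both clones were read with equal numbers of molecules per fragment. Of 1492 pairs chosen this way, the other part of the population kept 80.5% (Wilson 95% interval 78.4 to 82.4%), clone 1 kept 74.9% (72.6 to 77.0%) and clone 2 kept 73.9% (71.6 to 76.1%). A side crossed 50%, a low side above it or a high side below it, in 8 of these pairs in the other part of the population (0.536%, 0.272 to 1.05%), in 30 for clone 1 (2.01%, 1.41 to 2.86%) and in 28 for clone 2 (1.88%, 1.30 to 2.70%). For both measures the clones' intervals did not overlap that of the population's other part, though pairs that share fragments make the intervals too narrow. That other part comes from the same library that chose the pairs, while each clone is another single library. The intervals do not cover differences between libraries, so an effect of cloning cannot be told apart from such differences here. With all molecules, 22 pairs had a side across 50% in clone 1 (1.31%) and 21 in clone 2 (1.25%), 5 of them in both.

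The choice was also made on each clone's levels. Clone 1's own levels defined 1767 pairs, of which 74.0% were kept in the population and 74.1% in clone 2. Clone 2's levels defined 1749, of which 73.6% were kept in the population and 74.8% in clone 1. A side crossed 50% in 2.15% of clone 1's pairs read in the population and 3.17% read in clone 2, and in 2.34% of clone 2's pairs read in the population and 3.32% read in clone 1. These were above the 1.31% and 1.25% of pairs chosen in the population. Pairs found in all 3 libraries numbered 1134 of the 2421 found in any (46.8%).

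Low sides had a tail of raised levels in the clones, which did not choose them, while the median moved little. The median over 1579 fragments was 1.47% in the population, 1.45% for clone 1 and 1.60% for clone 2, and the means were 2.60%, 5.06% and 5.84%. Low sides chosen on clone 1's levels had means of 4.82% in the population and 6.17% in clone 2. Those chosen on clone 2's levels had 4.38% in the population and 5.16% in clone 1. Means near those of the clones were thus also found in the population when it did not choose the pairs. Levels above 20% were found in 105 fragments in clone 1 (6.65%) and 129 in clone 2 (8.17%), and 51 fragments were in both sets, 48.6% of the first and 39.5% of the second. Low fragments outside boundary pairs were above 20% in 2.90% and 3.38% of cases. In the equal-depth reading on 1403 low-side fragments, 47 were above 20% in the part of the population that did not choose them (3.35%), 106 in clone 1 (7.56%) and 134 in clone 2 (9.55%). For other low fragments those percentages were 0.939%, 3.71% and 4.19%. The share was larger among short fragments. Among boundary low sides of 2 to 4 CpGs, 13.8%, 21.0% and 25.2% were above 20%, and among those of 10 to 19 CpGs, 0.566%, 3.77% and 4.34%. Other low fragments of the same sizes gave 5.18%, 12.9% and 14.3%, and 0.367%, 1.83% and 1.83%.

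High sides had similar levels in all libraries on average. Their mean was 93.0% in the population, 93.0% for clone 1 and 93.7% for clone 2, with medians of 94.0%, 95.9% and 96.6%. Below 80% were 111 fragments in clone 1 (7.26%) and 98 in clone 2 (6.41%), against 7.39% and 6.51% of high fragments outside boundary pairs. Below 60% were 17 in each clone, and 2 fragments were in both sets. A low side above 20% together with a high side below 60% was found in no pair in clone 1 and in 2 pairs in clone 2. Across all pairs the difference between the clones on the low side and that on the high side had a Pearson correlation of 0.00493 (n = 1675 pairs, some of which share fragments, given as a description).

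The clones were then tested against each other, a comparison that the rule did not use. For each fragment, mostly methylated molecules (those above 50% of the CpGs observed on them) were counted against the rest in both clones (Fisher's exact test, two-sided), with Benjamini-Hochberg adjustment over all 184187 fragments tested. Fragments counted as called when the adjusted p was below 0.05 and the clones lay 20 points or more apart in the share of mostly methylated molecules. Over all fragments 3.78% were called, 1.71% higher in clone 1 and 2.06% higher in clone 2. Among boundary low sides 16 of 1579 were called (1.01%), 5 higher in clone 1 and 11 higher in clone 2. Low fragments elsewhere gave 97 of 31229 (0.311%). Among boundary high sides 44 of 1528 were called (2.88%), 22 in each direction, and high fragments elsewhere gave 2545 of 99199 (2.57%). Both shares were below the 3.78% over all fragments, which include those of intermediate level. The median difference was 0 points for low sides, for high sides and for all fragments tested. By CpG number, boundary low sides of 2 to 4 CpGs were called in 1.35% of cases and other low fragments in 1.48%, those of 5 to 9 CpGs in 1.37% and 0.447%, and those of 10 to 19 CpGs in 0.664% and 0.123%. These shares are set side by side without a test of their difference.

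**Figure D2:**
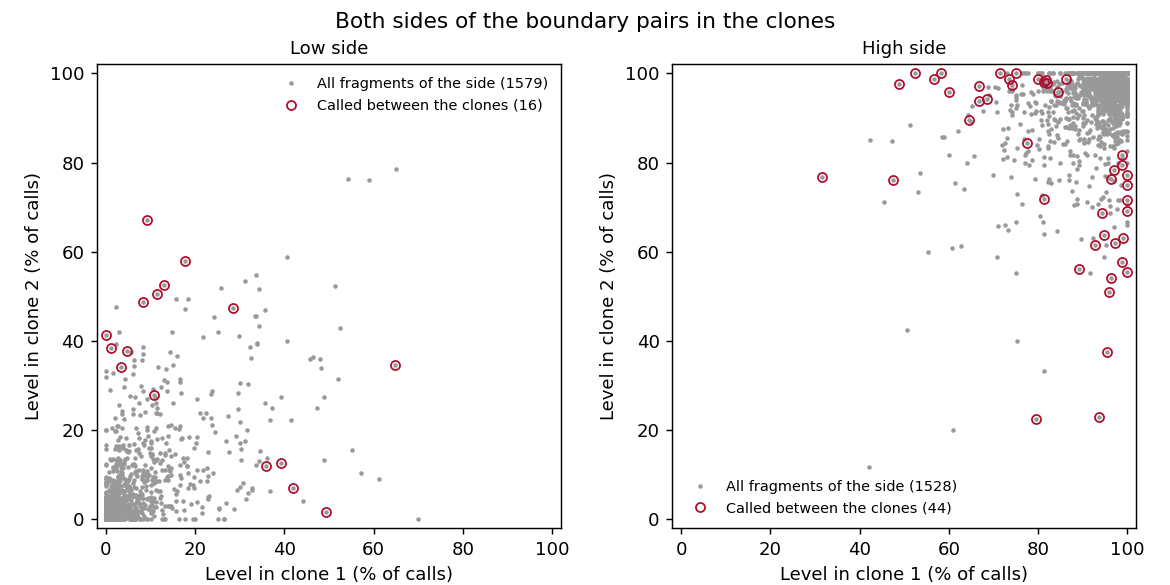
Methylation level of each low-side fragment (left, 1579) and high-side fragment (right, 1528) in clone 1 (horizontal axis, percent of calls) and clone 2 (vertical axis), with the 16 and 44 fragments called between the clones circled. Most low sides sit near 0 and most high sides near 100 in both clones, and the circled fragments lie off the diagonal on either side.

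Low sides had levels of 10% or less in the population. A call needed 20 points between the clones in the share of mostly methylated molecules, which is another measure than the level. The clone with the higher share would thus tend to lie above the population in level, and its distance from the population is a description. The other clone lay within 10 points of the population in 4 of the 5 fragments higher in clone 1 and in 9 of the 11 higher in clone 2. For the 5 fragments higher in clone 1, the median level was 6.98% in the population, 42.0% for clone 1 and 11.9% for clone 2. For the 11 higher in clone 2 it was 7.81%, 9.09% and 47.4%. Of the 16, 1 of the first set and 4 of the second were above 50% in the higher clone. The called high sides had medians of 88.7%, 96.8% and 63.4% for the 22 fragments lower in clone 2 and 84.6%, 70.0% and 97.7% for the 22 lower in clone 1. There the clone with the higher level lay within 10 points of the population in 17 of the 22 lower in clone 2 and in 9 of the 22 lower in clone 1. The clone with the lower level was below 50% in 3 of each 22.

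Fragment 689675 (10 CpGs) was the low side with the largest change in clone 1 among those called. Its level was 8.57% in the population, 64.9% for clone 1 and 34.6% for clone 2. Mostly methylated molecules numbered 1 of 27, 26 of 35 and 7 of 28 (adjusted p between the clones 0.00631, Fisher's exact test). Both clones lay above the population, and clone 1 above clone 2. Its high side 689678 stood at 91.5%, 96.5% and 94.0%, so the step narrowed from the low side. Fragment 124678 (6 CpGs) was at 3.37%, 49.3% and 1.61%, with 0 of 39, 15 of 30 and 0 of 15 methylated molecules (adjusted p 0.0197, Fisher's exact test). Only clone 1 was raised there. Fragment 124678 is paired with 2 high-side fragments, 124680 and 124681, which stood between 88.9% and 100% in all libraries. Fragment 377316 (6 CpGs) was at 3.67%, 42.0% and 7.14%, with 0 of 27, 14 of 35 and 0 of 36 methylated molecules (adjusted p 0.000799, Fisher's exact test). Again only clone 1 was raised.

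The largest change in clone 2 among called low sides was at fragment 1514507 (8 CpGs), with 8.70% in the population, 9.09% for clone 1 and 67.1% for clone 2. Methylated molecules numbered 1 of 14, 0 of 10 and 18 of 26 (adjusted p 0.0135, Fisher's exact test). Its high side 1514504 (3 CpGs) was at 92.5%, 86.2% and 98.8% and was called as well (33 of 45 methylated molecules for clone 1, 43 of 44 for clone 2, adjusted p 0.0451 by Fisher's exact test). This was the only pair with both sides called, and both were higher in clone 2. Fragment 194796 (12 CpGs) was at 7.69%, 17.7% and 57.9%, with 0 of 26, 0 of 24 and 15 of 28 methylated molecules (adjusted p 0.000732, Fisher's exact test). All 28 molecules of clone 2 carried both methylated and unmethylated CpGs, as did 22 of 24 in clone 1 and 13 of 26 in the population. The high side of 194796, fragment 194799 (9 CpGs), was at 80.7%, 72.7% and 66.1% and was not called (adjusted p 0.344, Fisher's exact test). Little of the step was left in clone 2. Fragment 403642 (8 CpGs) was at 1.30%, 11.4% and 50.5%, with 0 of 11, 1 of 15 and 19 of 30 methylated molecules (adjusted p 0.0134, Fisher's exact test). Its clone 2 molecules were spread over all 3 kinds, 9 unmethylated, 18 mixed and 3 fully methylated.

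On raised low sides most molecules were partly methylated rather than fully methylated. Molecules with at least 2 calls were sorted into unmethylated, mixed and methylated at every observed CpG. Over all low sides the percentages were 87.1, 12.8 and 0.0538 in the population, 81.4, 18.1 and 0.468 in clone 1, and 79.2, 20.4 and 0.428 in clone 2. On the 105 low sides above 20% in clone 1, clone 1 had 29.1% unmethylated, 64.3% mixed and 6.54% methylated molecules. On the 129 above 20% in clone 2, clone 2 had 27.3%, 67.9% and 4.83%. High sides had 79.7% fully methylated molecules in the population, 80.9% for clone 1 and 82.6% for clone 2. On the 17 high sides below 60% in clone 1, clone 1 had 9.43% unmethylated and 78.1% mixed molecules, and on the 17 below 60% in clone 2, clone 2 had 28.4% and 48.7%. The levels picked these last sets, so their molecules are a description.

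**Figure D3:**
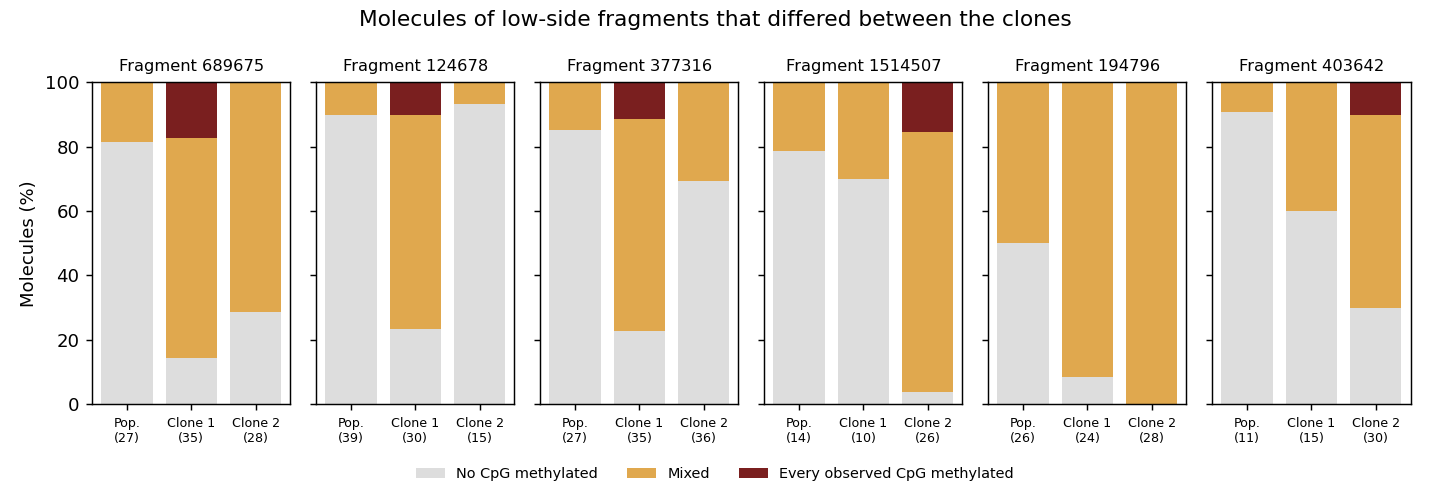
Percentage of molecules with no CpG methylated (grey), with both kinds of CpG (yellow) and with every observed CpG methylated (dark red) in each library, for the 6 low-side fragments described by number, with the number of molecules in parentheses under each bar. In the clone with the higher level mixed molecules are the largest class in each of the 6, and in fragment 194796 all 28 molecules of clone 2 are mixed.

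The called high sides with the largest changes were low in a single clone. Fragment 482351 (5 CpGs) was at 80% in the population, 31.6% for clone 1 and 76.9% for clone 2, with 21 of 27, 4 of 42 and 29 of 39 methylated molecules (adjusted p 5.35e-07, Fisher's exact test). Clone 1 alone was low, and 35 of its 42 molecules were mixed. Fragment 1116291 (4 CpGs), which is paired with 2 low sides, was at 86.8%, 47.5% and 76.1%, with 24 of 26, 14 of 42 and 26 of 34 (adjusted p 0.0096, Fisher's exact test). Its low sides 1116293 and 1116294 stood between 0 and 6.43% in all libraries. Fragment 576384 (3 CpGs) was at 97.1%, 58.3% and 100%, with 18 of 19, 6 of 21 and 18 of 18 (adjusted p 0.000242, Fisher's exact test). In clone 1 its CpG facing the low side was methylated in 18 of 18 calls and its far CpG in 1 of 1. The unmethylated calls of clone 1 were thus at the middle CpG alone. Of its 21 molecules in clone 1, 13 were mixed and 20 came from the plus strand.

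The largest change in clone 2 among called high sides was at fragment 1133707 (2 CpGs), with 86.5% in the population, 93.8% for clone 1 and 23.1% for clone 2, from 32 of 37, 30 of 32 and 3 of 13 methylated molecules (adjusted p 0.000476, Fisher's exact test). In clone 2, 12 of the 13 molecules came from the plus strand, so nearly all calls were at the end far from the low side. Fragment 448984 (4 CpGs) was at 81.3%, 79.5% and 22.5%, with 22 of 28, 33 of 44 and 4 of 26 (adjusted p 0.000166, Fisher's exact test). There the low level in clone 2 covered both strands, at 24.1% on plus and 21.4% on minus molecules. Fragment 560460 (2 CpGs) was at 88.9%, 95.3% and 37.5%, with 32 of 36, 41 of 43 and 9 of 24 (adjusted p 5.55e-05, Fisher's exact test). In clone 2 its CpG facing the low side was methylated in 0 of 13 calls and its far CpG in 9 of 11.

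Inside called fragments the change could sit at the facing end, at the far end or at a middle CpG. Facing CpGs are those in the part of the fragment nearer to the other side of the pair, with the middle CpG left out where the number is odd. The following fragments were chosen after their values were seen, as clear cases of each kind. In low side 377316, clone 1 was methylated in 56 of 77 facing calls (72.7%) and 4 of 66 far calls (6.06%), against 6 of 81 and 5 of 73 in clone 2. In high side 300219 (5 CpGs; 80%, 48.7% and 97.7%; adjusted p 1.56e-07, Fisher's exact test), clone 1 was methylated in 4 of 57 facing calls (7.02%) and 59 of 60 far calls (98.3%), against 43 of 44 and 50 of 52 in clone 2. In both, the edge of the unmethylated stretch lay at another place within a fragment in clone 1 than in clone 2, toward the low side in 377316 and toward the high side in 300219. The reverse layout was seen too. Low side 148412 (4 CpGs; 6.98%, 35.8% and 11.9%; adjusted p 0.0199, Fisher's exact test) had 1 of 57 methylated facing calls and 42 of 63 methylated far calls in clone 1. High side 1302832 (3 CpGs; 94.0%, 98.9% and 79.4%; adjusted p 0.00729, Fisher's exact test) had 17 of 17 facing and 5 of 17 far calls methylated in clone 2. In other high sides of 3 CpGs only the middle CpG, which this split leaves out, had unmethylated calls. High side 81743 was at 61.9% in clone 2, with 3 of 3 facing and 19 of 19 far calls methylated. High side 903978 was at 71.7% in clone 2, with 8 of 8 and 17 of 17.

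Over all called fragments both end layouts were common, though these counts do not see a change at a left-out middle CpG. In the clone with the higher level, facing CpGs were more methylated than far CpGs in 10 of the 16 called low sides and less in 6, with medians of 46.9% and 45.1%. Among the 36 called high sides with at least 5 calls at each end, in the clone with the lower level, facing CpGs were higher in 19, lower in 16 and equal in 1. Gaps of at least 30 points had the facing end higher in 2 low sides and the far end higher in 1, and in high sides the numbers were 9 and 8.

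Over all boundary pairs, low sides were slightly more methylated at the end that faced the high side, in every library. In low sides with at least 6 CpGs, the 3 facing CpGs had a mean level of 3.01% in the population, 5.27% for clone 1 and 6.13% for clone 2, and the 3 far CpGs had 2.08%, 3.60% and 4.24% (1297, 1292 and 1277 pairs with at least 10 calls at each end). The facing end was at least 20 points above the far end in 10, 66 and 70 pairs, and the far end above the facing end by as much in 3, 29 and 26. The outermost facing CpG had means of 4.06%, 7.13% and 7.19%, and the outermost far CpG 2.34%, 3.68% and 4.59%. High sides showed smaller gaps, with 92.2%, 93.0% and 93.3% at the facing end and 93.1%, 93.1% and 93.8% at the far end (454, 461 and 444 pairs). Calls at the strand ends that the fill-in reaction rebuilds made up 0.136%, 0.198% and 0.216% of low-side calls and 0.189%, 0.262% and 0.465% of high-side calls. On high sides 60.7%, 48.9% and 69.4% of these calls were methylated, against 93.5%, 93.5% and 94.1% at the other strand end. Without these calls the low-side means were 3.00%, 5.29% and 6.15% at the facing end and 2.08%, 3.60% and 4.21% at the far end. The high-side means were then 92.3%, 93.2% and 93.5% at the facing end and 93.2%, 93.3% and 94.0% at the far end.

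Farther out, levels moved away from those of the pair on either flank. The first fragment beyond the low side had a mean level of 3.81% in the population, 5.20% for clone 1 and 5.66% for clone 2 (437 measured). At 3 fragments beyond it was 13.3%, 14.5% and 15.4%, at 5 it was 30.7%, 31.7% and 32.3%, and at 10 it was 46.5%, 48.5% and 48.8%. Beyond the high side the first fragment stood at 91.0%, 91.7% and 92.6% (251 measured), and the one 5 away at 73.5%, 75.5% and 75.4%. The median 5 fragments beyond the low side was 2.40% in the population, because most fragments there were low (59.8%) or high (24.0%). At 10 fragments beyond the low side 45.0% were low in the population, and at 10 beyond the high side 70.3% were high. Of all 161264 measured fragments 20.3% were low and 62.5% high.

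**Figure D4:**
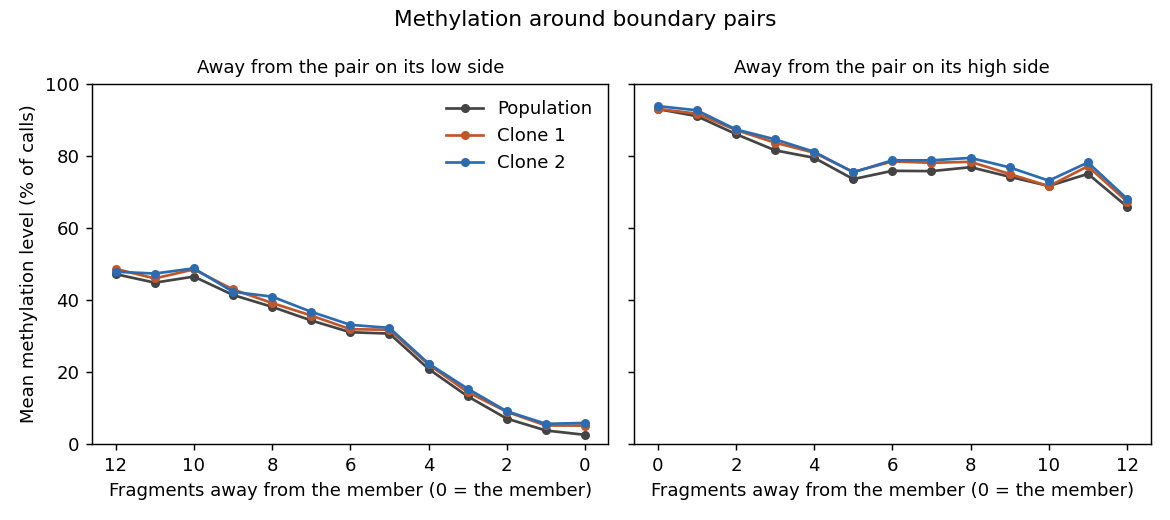
Mean methylation level (percent of calls, vertical axis) at the pair's low side (left panel, 0) and high side (right panel, 0) and up to 12 fragment numbers farther away from the pair, with 1 line per library. From the low side outward the mean climbs to 46.5% in the population at 10 fragments, and from the high side outward it declines to 65.9% at 12.

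Where every fragment between the sides was measured, the change could be located. This was so in 27 pairs, 12 with numbers 2 apart and 15 with numbers 3 apart, in 20 separate stretches. The widest step between neighbours lay at the same interval in all libraries in 14 pairs. Compared with the population it lay elsewhere in 11 pairs in clone 1, 7 nearer the low side and 4 nearer the high side. Some of these pairs share a stretch and count the same shift again, as those with fragments 172533, 843100 and 1300424 do. In clone 2 the widest step lay elsewhere in 5 pairs, all nearer the low side. The change was seldom made in a single jump: the widest step had a median of 51.4, 51.9 and 56.0 points, and the 35 fragments between sides had median levels of 42.9%, 46.3% and 53.7%. Of these 35, 3 were called between the clones. No test was made of the place of the widest step, which moves easily where 2 steps are of like size.

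The shift with the largest difference between the clones was in the stretch 472416 to 472419. From the low side to the high side the population stood at 9.52%, 20.0%, 57.4% and 84.1%. Clone 1 stood at 2.04%, 5.26%, 64.4% and 74.2%, and clone 2 at 22.8%, 72.5%, 96.9% and 96.4%. The widest step was between the middle fragments in the population and clone 1 and between the low side and 472417 in clone 2. Fragment 472417 (2 CpGs) held 6 methylated molecules of 30 in the population, 2 of 38 for clone 1 and 29 of 40 for clone 2 (adjusted p 1.61e-07, Fisher's exact test). Its neighbour 472418 (4 CpGs) had 21 of 35, 27 of 39 and 36 of 36 (adjusted p 0.00878, Fisher's exact test). The outer fragments 472416 and 472419 were not called (adjusted p 1 and 0.376, Fisher's exact test).

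In the stretch 1300424 to 1300427 the widest step was 1 interval nearer the high side in clone 1 than in clone 2. From low to high the population stood at 9.2%, 50.9%, 91.3% and 85.5%. Clone 1 stood at 15.1%, 46.3%, 81.4% and 90.7%, and clone 2 at 6.9%, 62.9%, 71.9% and 96.3%. In the population and clone 1 the steps on either side of 1300425 were of like size, so the place of the widest step is uncertain there. Fragment 1300426 (5 CpGs), which lies between these sides and is itself the high side of a pair with 1300424, was at 91.3% in the population, 81.4% for clone 1 and 71.9% for clone 2. It had 42 of 44 methylated molecules in clone 1 against 20 of 31 for clone 2 (adjusted p 0.0327, Fisher's exact test). The lower level was thus in clone 2, and the call does not tell where the step lay. This was the only other fragment between sides called between the clones, and it was named after its values were seen.

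No fragment between the sides was called in the other 2 boundaries chosen by the size of the clones' difference. From low to high, fragments 843100, 843099, 843098 and 843097 stood at 1.81%, 29.9%, 89.6% and 89.4% in the population, 4.92%, 52.6%, 88.8% and 98.9% in clone 1, and 0.361%, 30.4%, 71.7% and 97.8% in clone 2. Clone 1 had its widest step 1 fragment nearer the low side, but 843099 had 9 of 21 methylated molecules in clone 1 against 3 of 17 for clone 2 (adjusted p 1, Fisher's exact test). Fragments 1421149, 1421148 and 1421147 stood at 6.25%, 43.9% and 83.9% in the population, 30.3%, 82.3% and 100% in clone 1, and 13.3%, 53.8% and 100% in clone 2. The middle fragment had 25 of 36 methylated molecules in clone 1 against 5 of 14 for clone 2 (adjusted p 0.553, Fisher's exact test).

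**Figure D5:**
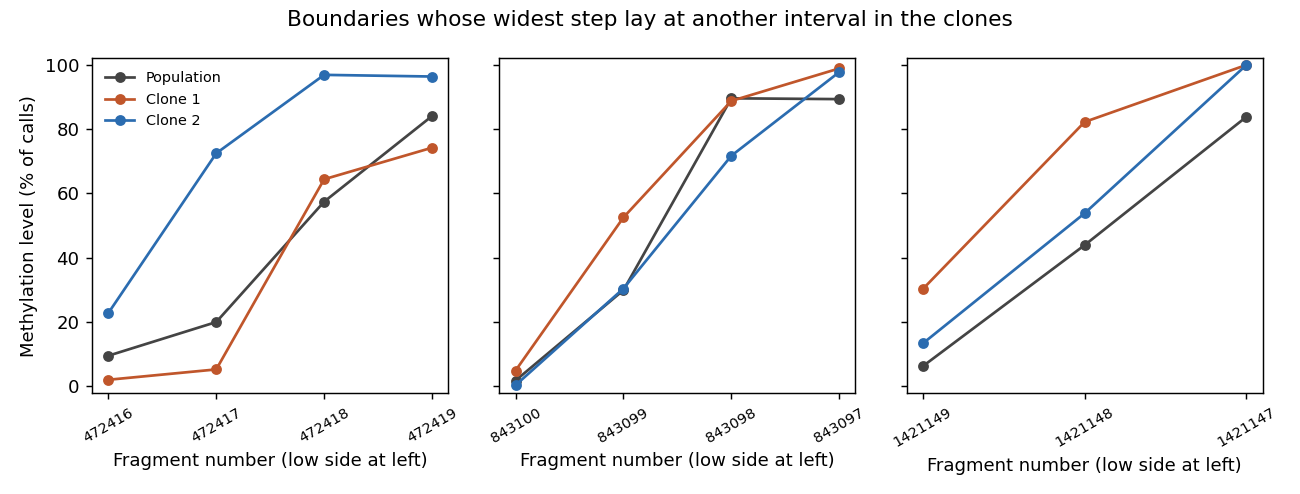
Methylation level (percent of calls) of each fragment from the low side (left) to the high side (right) of 3 boundaries whose widest step lay at different intervals in the 2 clones, with 1 line per library. In the first panel clone 2 is at 72.5% in fragment 472417, where the population is at 20.0% and clone 1 at 5.26%.

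The 5 pairs with consecutive numbers meet at a cut site, and there single CpGs give the finest view. In pair 385969 and 385970 the low side (7 CpGs) was at 0.592% in the population, 1.52% for clone 1 and 1.68% for clone 2, and the high side (6 CpGs) at 91.7%, 94.1% and 87.9%. In the population the high fragment's CpG nearest the low side was unmethylated in 5 of 5 calls, while its CpGs 3 to 6 were methylated in all of 13, 13, 15 and 12 calls. The low fragment's CpG nearest the cut lies at the same CCGG. It was methylated in 0 of 12 calls in the population, 0 of 19 in clone 1 and 0 of 7 in clone 2. In the population the change in this pair thus lay inside the high-side fragment. The clones had no call at that CpG on the high fragment itself. At the high fragment's next CpG 2 of 3 calls were methylated in clone 1 and 0 of 2 in clone 2. Pair 389559 and 389560 was the pair whose step ran the other way in clone 2. Its low side (3 CpGs) was at 9.62%, 2.33% and 47.6%, and its high side (2 CpGs) at 81.8%, 42.1% and 11.8%. In clone 2 the CpG of 389559 nearest the cut was methylated in 11 of 11 calls, the middle CpG in 0 of 18 and the far CpG in 9 of 13. On 389560 the CpG nearest the cut was methylated in 2 of 2 calls in clone 2 and the far CpG in 0 of 15. The low level of 389560 in clone 2 thus rested on its far CpG. Neither fragment was called between the clones (adjusted p 0.181 and 0.639, Fisher's exact test).

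The other 3 adjacent pairs had few calls at the low fragment's end at the cut. Fragment 386908 was at 0%, 0% and 16.7% in the population, clone 1 and clone 2, and 386907 at 85.7%, 72.1% and 80.8%. Fragment 522287 was at 5.56%, 16.3% and 20.4%, and 522288 at 85.9%, 81.4% and 64.1%. Fragment 1536748 was at 0%, 0% and 4.65%, and 1536747 at 92.0%, 92.4% and 85.8%. At most 2 calls per library were made at the CpG of the low fragment nearest the cut in any of the 3.

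The clones were also tested against the population, which had chosen the pairs, so those counts are a description from which nothing is read. Clone 1 had 9 low sides called, all higher than the population, and 11 high sides, all lower, beside 1.5% of all 197730 fragments tested (0.805% higher and 0.69% lower). Clone 2 had 17 low sides, all higher, and 12 high sides, 10 of them lower, beside 1.42% of all 163766 (0.891% higher and 0.532% lower). With pairs chosen on 1 part of the population and tested against the other, clone 1 had 3 of 825 low sides and 4 of 1071 high sides called, beside 0.759% of all fragments. Clone 2 had 2 of 825 and 1 of 1071, beside 0.618%.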

How the data were processed

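DNA cut with MspI was tagged, treated with bisulfite and sequenced, per the labels' protocols. The submitters' processing notes name Bismark and mm9; the version, filters and joining of replicates were not given in the sources used here. The authors deposited 1 line per fragment number, strand and tag, taken as 1 molecule, with a string of 0, 1 or * per CpG and a count of reads, which is not normalized. A further deposited count of unstated meaning was not used. Consecutive numbers were taken as neighbours because the last CpG of a fragment and the first CpG of the next differed by a mean of 5.76 points in the population, against 10.1 for the outer CpGs. Members and lists were chosen with earlier results of these data known. Levels, Wilson intervals, Fisher's exact tests and Benjamini-Hochberg adjustment were computed in Python 3.11.15 with NumPy 2.4.6, pandas 2.3.3 and numba 0.67.0, and figures in matplotlib 3.10.9. The test was tried on data simulated at the clones' depths: 30 of 100 fragments changed by 40 points and 73 of 100 changed by 70 were called. In each changed fragment 1 clone was set to 0% or 100% methylated molecules, and molecules were drawn independently. The recovery therefore does not carry over to fragments with both clones at middle levels. Equal-depth readings drew molecules at random with seed 1. Each library had 77 tags, and no combination of fragment, strand and tag was listed again within a library. Separate molecules that shared a tag would therefore count as 1, and its calls could come from more than 1 molecule. Whether the counted molecules are all independent was not measured. Named fragments are, per side and clone, the 3 called between the clones with the largest change from the population, the 3 deepest kept pairs, up to 3 boundaries whose step lay elsewhere in the 2 clones, pairs with both sides called, and the adjacent pairs. Alternatives changed the molecule minimum, distance, thresholds, CpG number, reads per molecule, strand, shared fragments, choosing molecules and the unit tested.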

Additional observations from a re-analysis of the deposited data

Results flagged for a closer look

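The clones differed in a direct test of clone 1 against clone 2 at 16 low-side and 44 high-side fragments. They also differed at fragment 472417, between the sides of its pair: the share of methylated molecules was lower in clone 1 (2 of 38) than in clone 2 (29 of 40), a difference of -67.2 points (adjusted p 1.61e-07, Fisher's exact test). Each clone is 1 pooled library, so the spread between its replicates was not measured.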

How the results depend on the processing

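No paired analysis was possible because both replicates of a clone share 1 file, and for the same reason no replicate could be left out. Low sides called between the clones (16 of 1579) numbered 3 of 225 with a minimum of 20 molecules, 0 of 5 in pairs 1 apart, 3 of 957 with limits of 5% and 90%, 0 of 46 on molecules with at least 2 reads, 4 of 282 on plus and 2 of 261 on minus molecules, and 36 of 1423 on the deepest single CpG. High sides called (44 of 1528) numbered 11 of 226, 0 of 5, 6 of 918, 0 of 45, 5 of 283, 5 of 258 and 80 of 1378 under the same settings, and 14 of 860 with at least 4 CpGs on both sides. Pairs kept in clone 1 (78.0%) came to 40% of the 5 pairs 1 apart, 74.8% with limits of 5% and 90%, 73.9% of 46 pairs on molecules with at least 2 reads, 72.3% on plus and 71.8% on minus molecules, and 75.6% when chosen on 1 part of the population. Pairs kept in clone 2 (76.9%) came to 40%, 74.6%, 80.4%, 71.4% (minus) and 73.5%. Pairs with a side across 50% in clone 1 (1.31%) came to 20% for 1 apart, 0.297% with limits of 5% and 90%, 0.854% with at least 4 CpGs, 6.52% with at least 2 reads, 2.08% on plus and 3.76% on minus molecules. In clone 2 (1.25%) they came to 20%, 0.495%, 0% with at least 2 reads, 3.11% on plus molecules and 1.99% when chosen on 1 part. Fewer fragments were tested under most of these settings, but the share called changed too. With limits of 5% and 90% it fell to 0.313% of low sides (from 1.01%) and 0.654% of high sides (from 2.88%). It rose to 1.33% and 4.87% with a minimum of 20 molecules, and to 2.53% and 5.81% on the deepest single CpG. The cause of the changes was not tested. Chosen after seeing the data, the test against the other part of the population called 3 low and 4 high sides in clone 1 (9 and 11 with all molecules) and 2 low and 1 high in clone 2 (17 and 12). For pairs that share no fragment, 13 low and 33 high sides were called, and with no minimum difference 16 and 44. Depth limits single fragments, at medians of 20 to 32 molecules.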
